A study of Mus musculus with 4 samples.

Results

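Cells that a gene rule labelled T, natural killer (NK) or innate lymphoid were rare in Kit-sorted mouse bone marrow. They were 77 of 34122 cells that passed the quality filters. An innate lymphoid part other than NK cells was not established, as given below. A cell was counted when it held at least 1 unique molecular identifier (UMI, one counted RNA molecule) of at least 3 of 7 genes: Cd3e, Cd3d, Cd3g, Trbc2, Lck, Bcl11b and Il2rb. The control library held 29 such cells of 7152. Mll3SI held 9 of 8617, Mll4SI 14 of 11187, and Mll3/4SI 25 of 7166. These cells were chosen by measured RNA, so their high level of the 7 genes describes the choice and is no finding.

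The study measured RNA and barcoded surface antibodies together (CITE-seq) in bone marrow cells that carried CD45.2 and Kit, collected 10 weeks after transplantation. CD45.2 is an allele of the pan-leukocyte protein CD45, and Kit (CD117) is the receptor by which blood stem and progenitor cells are sorted. The groups were a control and the genotypes Mll3SI, Mll4SI and Mll3/4SI, named for MLL3 (gene Kmt2c) and MLL4 (Kmt2d), which are enzymes that methylate histone H3. Each group was 1 library, the labels do not spell out SI, and they give no sex, animal, strain, recipient or batch. Every library also carried Hashtag1 and Hashtag2 antibodies, and the labels do not say what they marked. No difference between groups has a replicate check, no test was possible, and all bracketed 95% intervals cover counting error only.

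T cells recognise antigen through a receptor whose alpha and beta, or gamma and delta, chains signal through the CD3 proteins and the kinase Lck. NK cells lack that receptor and use activating and inhibitory receptors such as NKp46 (Ncr1) and the Klr family to release granzymes, perforin and chemokines. Innate lymphoid cells share transcription factors such as Gata3, Rora, Tcf7 and Zbtb16 with T cells, and their precursors, like those of NK cells, arise in the bone marrow.

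Libraries held 7524 to 11678 barcodes and 140546094 to 177753607 gene UMIs in all. Kept cells had a median of 13516 to 19644 gene UMIs, and any pair of libraries shared 13 to 25 kept barcodes. The lymphoid cells were shallower: their median was 5939 UMIs in control, 5800 in Mll3SI, 6101 in Mll4SI and 8314 in the Mll3/4SI library, against 17307, 14124, 13521 and 19671 in all other cells. The female transcript Xist was found in 0, 0, 14 and 25 of the lymphoid cells in that order, and the Y-linked Eif2s3y or Ddx3y in 19, 7, 0 and 0. The same held for all other cells, of which 0.0562%, 0.349%, 90.4% and 97.9% had Xist. Control and Mll3SI were thus alike in these transcripts. Mll4SI and Mll3/4SI differed from control in them as well as in genotype, and for those 2 comparisons the parts of sex and genotype cannot be told apart.

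Lymphoid cells were 0.405% of kept control cells (0.272 to 0.582, exact Clopper-Pearson) and 0.349% of Mll3/4SI cells (0.226 to 0.515). They were 0.104% of Mll3SI cells (0.0478 to 0.198) and 0.125% of Mll4SI cells (0.0684 to 0.210). The share in Mll3SI was 0.258 times that of control (0.109 to 0.548), and in Mll4SI 0.309 times (0.153 to 0.594). In Mll3/4SI it was 0.860 times (0.489 to 1.5), an interval that includes 1. Control and Mll3/4SI thus had similar shares, and Mll3SI and Mll4SI had lower ones, with no overlap between the intervals of the 2 lower libraries and those of the other 2. After every cell was thinned to 3000 UMIs, which 131, 119, 227 and 140 kept cells did not reach, 13, 6, 13 and 13 lymphoid cells remained. The ratios to control were then 0.381 (0.122 to 1.04), 0.641 (0.280 to 1.46) and 0.999 (0.437 to 2.28). Fewer cells met the rule at that depth, in control 13 against 29 before. All 3 intervals include 1, so with these few cells the lower shares in Mll3SI and Mll4SI were not resolved. A definition by NK markers, given below, kept more cells at equal depth: 28, 10, 21 and 52. Their share ratios to control were 0.295, 0.480 and 1.86, given without intervals.

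The hashtags split the control cells unequally. Among cells positive for Hashtag2 alone 21 of 3360 were lymphoid, and for Hashtag1 alone 8 of 3478, a ratio of 2.72 (1.19 to 6.96). In Mll3/4SI the counts were 12 of 3791 and 12 of 2997, a ratio of 0.791 (0.334 to 1.87). In Mll4SI they were 7 of 4935 and 7 of 5046, and in Mll3SI 5 of 4234 and 3 of 3649. Within Hashtag1 alone the shares relative to control were 0.357 in Mll3SI, 0.603 in Mll4SI and 1.74 in the Mll3/4SI library, and within Hashtag2 alone 0.189, 0.227 and 0.506. By the rule, the direction for Mll3SI and Mll4SI was the same in both hashtags, while that for Mll3/4SI was not.

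**Figure D1:**
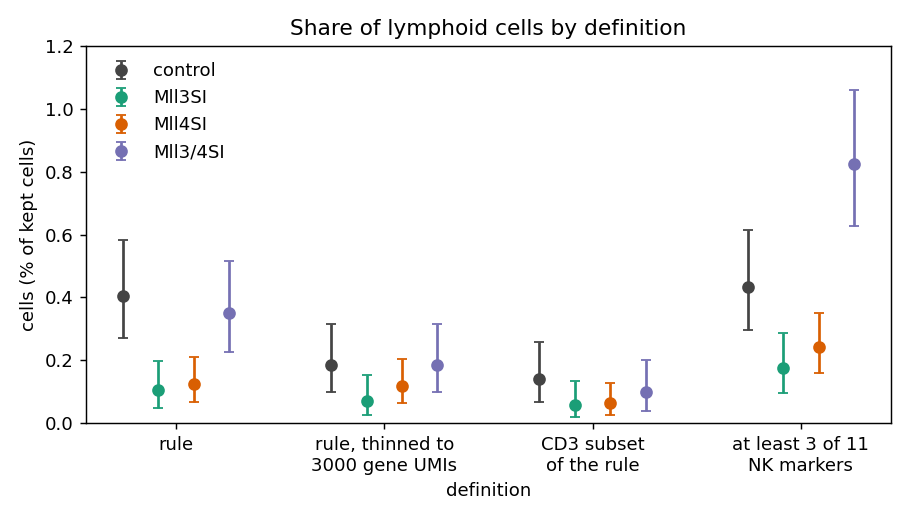
Share of kept cells (percent, y axis) that were lymphoid by the gene rule, had at least 2 of the 3 CD3 genes, or had at least 3 of 11 NK markers, in each library, with bars for exact 95% counting intervals. By the rule control (0.405%) and Mll3/4SI (0.349%) lie above Mll3SI (0.104%) and Mll4SI (0.125%), and by NK markers Mll3/4SI is highest at 0.823%.

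The rule was easily missed by 1 gene. In control 15 of the lymphoid cells, and 4, 5 and 15 in the mutant libraries in the order above, had exactly 3 of the 7 genes. A further 29, 10, 11 and 37 cells had exactly 2 and were left out. In Mll3/4SI the left-out cells mostly held Il2rb (30 of 37) and Lck (28 of 37), whereas in control the gene found most often was Cd3d (17 of 29), and none of the left-out cells in any library had Cd3e. A definition by 11 NK markers outside the rule, at least 3 of them detected, was chosen after these values were seen. It found 31, 15, 27 and 59 cells, or 0.433%, 0.174%, 0.241% and 0.823% of kept cells. Relative to control these shares were 0.402 (0.204 to 0.755), 0.557 (0.323 to 0.953) and 1.90 (1.22 to 3.01). In Mll3/4SI 35 of the 59 cells were not lymphoid by the rule, 27 of them had 2 rule genes, and 32 had Ncr1. The order of Mll3/4SI and control therefore depended on the definition.

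NK receptor transcripts, which the rule did not use, were found in most of the lymphoid cells. Ncr1, encoding the activating receptor NKp46, was found in 18 of 29, 4 of 9, 12 of 14 and 19 of 25 cells, 53 of the 77 in all. At least 3 of the 4 receptor genes Ncr1, Klrb1c, Klrd1 and Klrk1 were found in 19, 5, 13 and 23 cells. At least 3 NK markers, a list that includes the rule gene Il2rb, were present in 24, 8, 14 and 24 cells. Among all other cells 0.0813% to 0.504% had as many. The genes highest over all other cells, given as a description since the rule fixed this contrast, included Ccl5 (2498 CPM, UMIs per 1000000, averaged over libraries, against 4.59), Ms4a4b (905 against 4.29), Skap1 (751 against 1.11), Xcl1 (637 against 0.635) and Klrd1 (629 against 1.59), at ranks 1, 3, 5, 7 and 8. AW112010, Gm2682 and Tox held the ranks between them. Ccl5 and Xcl1 encode chemokines of NK and cytotoxic T cells, Klrd1 encodes the receptor subunit CD94, and Skap1 encodes an adaptor of T cell receptor signalling. Lowest were the granule genes of immature granulocytes, Ctsg, Prtn3, Elane and Mpo.

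The CD3 proteins carry the signal of the T cell receptor, and at least 2 of the 3 genes Cd3e, Cd3d and Cd3g were found in 10, 5, 7 and 7 cells. Those shares were 0.140%, 0.0580%, 0.0626% and 0.0977%, with ratios to control of 0.415 (0.116 to 1.27), 0.448 (0.150 to 1.25) and 0.699 (0.234 to 1.96). All 3 intervals include 1, so no difference in this CD3 subset was detectable at this depth. Of the 29 cells with at least 2 CD3 genes 12 also had Ncr1, 9 had Trac, which encodes the constant part of the alpha chain, and 17 had Trdc, that of the delta chain. Both Trac and Trdc were found in 2 of them. Trdc transcripts are also made by NK cells, so a UMI of it does not by itself mark a gamma-delta T cell. Cd4, Cd8a or Cd8b1, the coreceptors of mature alpha-beta T cells, were found in 5 of the 77 cells.

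A further 29 cells (12, 0, 4 and 13) had no CD3 gene, and 26 of them (10, 0, 4 and 12) had Ncr1. At least 3 T markers were found in 26, 7, 12 and 24 cells, a list that includes the rule's own genes. Innate lymphoid precursor markers, of which NK cells share several, were found at 3 or more in 24, 6, 12 and 23 cells, against 2.58% to 6.48% of other cells. Group 2 innate lymphoid markers reached 3 in 3, 1, 2 and 3 cells. B-lineage markers reached 3 in 1 cell, in Mll3SI. The cells were thus a mixture: Ncr1 was found in 53 of the 77, at least 2 CD3 genes in 29 and 1 CD3 gene in 19. CD3 genes are part of the rule, so their counts cannot check the label. Group 2 innate lymphoid markers reached 3 in 9 of 77 cells, and the precursor markers do not separate such cells from NK cells. An innate lymphoid part other than NK cells was therefore not established.

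**Figure D2:**
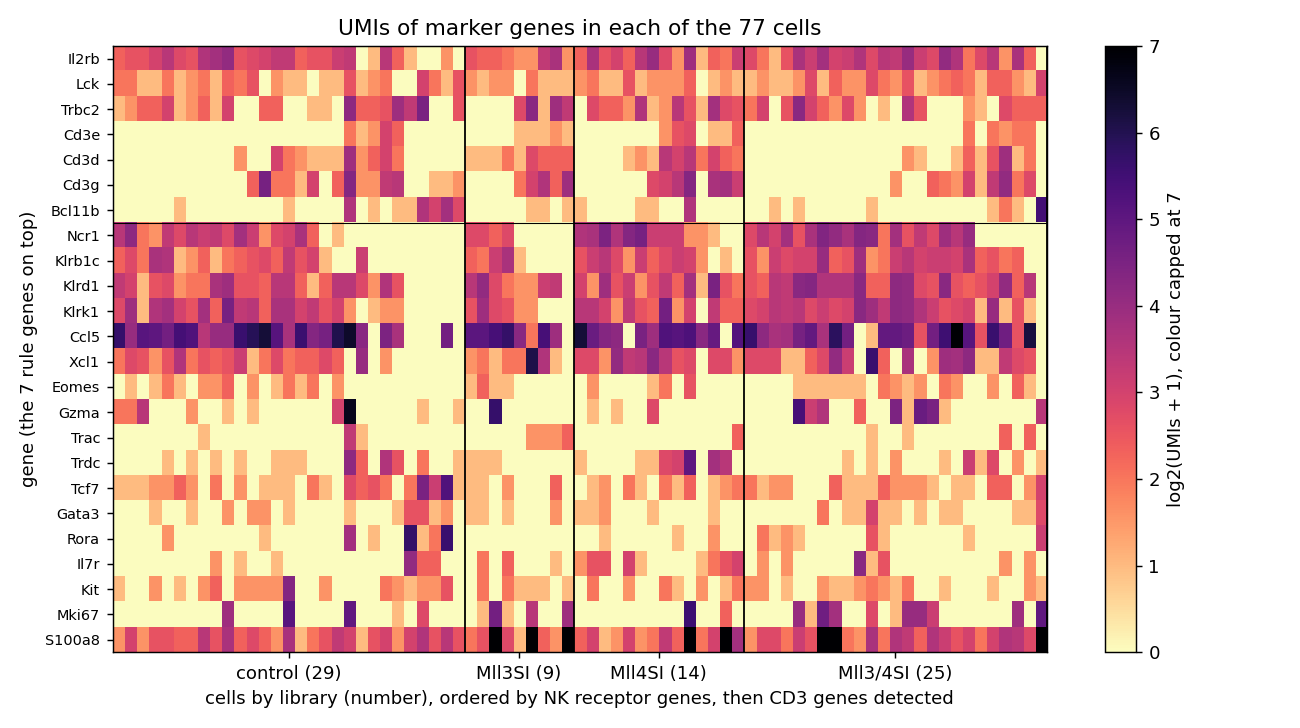
Transcripts in each lymphoid cell, drawn per cell and library from the UMI counts of rule genes, NK receptors and other lineage genes. Of the 77 cells, 53 show Ncr1, 29 show at least 2 CD3 genes and 29 show none of the 3 CD3 genes.

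The CD3 genes lie side by side on chromosome 9 (GRCm38, GENCODE M21). Cd3g spans chr9:44969572-44980431 on the minus strand, Cd3d chr9:44981786-44987339 on the plus strand and Cd3e chr9:44998740-45009627 on the minus strand. The starts of Cd3g and Cd3d are 1355 bases apart and face away from each other. The 250 bases before the annotated starts of these neighbours are shown because the pair gave different counts outside the lymphoid cells, and that before Ncr1 because its UMIs were in 53 of the 77 cells. They are RefSeq sequences of GRCm38.p6, read 5′ to 3′ along each gene, at chr9:44981536-44981785 (Cd3d, plus strand), chr9:44980432-44980681 (Cd3g, minus strand) and chr7:4337474-4337723 (Ncr1, plus strand). Capitals mark GGAA (the core letters bound by ETS factors), TGTGGT (RUNX) and AGATAA (the core for GATA factors) on either strand.
Cd3d: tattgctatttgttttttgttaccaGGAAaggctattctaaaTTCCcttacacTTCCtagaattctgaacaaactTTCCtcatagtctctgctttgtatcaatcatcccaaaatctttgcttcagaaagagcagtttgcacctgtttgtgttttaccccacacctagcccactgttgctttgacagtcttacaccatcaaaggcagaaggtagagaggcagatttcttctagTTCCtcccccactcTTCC
Cd3g: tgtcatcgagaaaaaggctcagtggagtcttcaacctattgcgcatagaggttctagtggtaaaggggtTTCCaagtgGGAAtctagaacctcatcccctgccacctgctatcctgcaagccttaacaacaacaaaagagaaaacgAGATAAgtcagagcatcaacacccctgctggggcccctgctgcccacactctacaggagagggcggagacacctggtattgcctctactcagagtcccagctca
Ncr1: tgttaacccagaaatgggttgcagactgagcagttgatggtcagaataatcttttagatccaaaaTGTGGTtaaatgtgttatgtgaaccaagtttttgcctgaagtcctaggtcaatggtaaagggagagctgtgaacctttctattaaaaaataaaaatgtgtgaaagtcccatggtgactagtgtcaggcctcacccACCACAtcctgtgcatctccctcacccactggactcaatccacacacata
Cd3d held 6 GGAA matches, Cd3g held 2 and 1 AGATAA match, and Ncr1 held 2 TGTGGT matches and no GGAA. Among 32851 RefSeq promoters of the same length 93.4% held GGAA, 14% TGTGGT and 9.99% AGATAA. Of the 4 NK receptor genes 3 had an entry, and all 3 held TGTGGT. A match is a run of letters and not a shown binding site.

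Cd3d and Cd3g, which sit on opposite sides of that short interval, differed in how often they were seen outside the lymphoid cells. In cells thinned to 3000 UMIs, a Cd3d UMI was found in 8.14% of the other control cells. The shares were 6% for Mll3SI, 0.219% for Mll4SI and 3.67% for Mll3/4SI (26.8%, 18.7%, 0.740% and 14.2% without thinning). In cells with Ltf, a granule gene of maturing neutrophils, the thinned shares were 13.8%, 11.1%, 0.280% and 6.66%. Their Cd3d level was 46.7, 35.6, 0.624 and 21.1 CPM. In control cells with the early granule gene Elane and without Ltf the thinned share was 0.206%. Cd3d UMIs outside the lymphoid cells thus went with Ltf and were lowest in Mll4SI, whereas in the same thinned control cells Cd3g was found in 0.0429% and Cd3e in 0 of 6993, which allows up to 0.0527% (exact upper limit). Cd3d is 1 of the 7 rule genes, and within the lymphoid cells it was found in 12, 9, 10 and 9. With Cd3d left out of the rule and 3 of the other 6 genes required, 28, 5, 13 and 25 cells were counted. Those were 0.391%, 0.0580%, 0.116% and 0.349% of kept cells, so the Mll3SI count depended most on Cd3d.

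Values of the other rule genes in the lymphoid cells were as follows. Cd3e was found in 5, 5, 6 and 5 cells with a maximum of 7, 2, 6 and 3 UMIs, and Cd3g in 15, 5, 7 and 10 with a maximum of 23, 14, 19 and 16. Trbc2, the constant part of the T cell receptor beta chain (chr6:41546730-41548352), was found in 22, 5, 13 and 18 cells at 449, 445, 539 and 266 CPM. Lck, the kinase that starts receptor signalling (chr4:129548344-129573641), was found in 25, 8, 13 and 25 at 230, 121, 208 and 202 CPM. Il2rb, the interleukin 2 and 15 receptor chain on which NK cells depend (chr15:78479256-78495271), was found in 25, 9, 14 and 24 at 609, 399, 731 and 554 CPM. Bcl11b, a transcription factor of T cell commitment (chr12:107910403-108003602), was the least even: 10, 3, 4 and 7 cells, at 193, 27.8, 108 and 147 CPM. In Mll3/4SI 1 cell held 43 of its 51 UMIs.

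Comparing gene levels between libraries rested on few cells. The 3 deepest lymphoid cells of each library held 33.0%, 73.3%, 53.2% and 33.4% of its lymphoid UMIs. Granulocyte RNA was uneven as well, and 8 cells (0, 3, 2 and 3) had more than 100 UMIs of S100a8, a calprotectin subunit of neutrophils. Those cells had 11278 to 50112 UMIs, of which 9.65% to 25.9% came from granulocyte markers, and 6 of the 8 were scored as doublets by Scrublet. Their Gr1 antibody counts were 104 to 2628 and their CD11b counts 345 to 2978, both antibodies against myeloid proteins. At least 3 granulocyte markers were found in all 77 cells. In control they made up 0.132% to 0.740% of a lymphoid cell's UMIs. The ranges were 0.219% to 23.8% for Mll3SI, 0.174% to 25.9% for Mll4SI and 0.102% to 22.4% for Mll3/4SI. The medians were 0.307%, 0.328%, 0.523% and 0.265%, against 21.8%, 10.7%, 29.0% and 22.2% in other cells. Each gene list below is given with and without the 8 cells.

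Of 6589 genes with a mean of at least 20 CPM, 8.35% were at least 2-fold higher and 14.1% at least 2-fold lower in Mll3SI than in control (10 CPM added to each level). In Mll4SI 7.88% were higher and 9.50% lower, and in Mll3/4SI 5.11% and 5.86%. The median log2 ratio over all these genes was -0.16, -0.04 and -0.08. The 5 genes furthest up were Camp, Ngp, S100a9, S100a8 and Wfdc21 in Mll3SI, and the first 4 of these with Chil3 in Mll3/4SI. S100a9 and Lyz2 led in Mll4SI. These are genes of neutrophils and other myeloid cells. S100a9 was at a log2 ratio of 5.83 in Mll3SI and 4.90 in Mll3/4SI with those cells and at -0.04 and 0.04 without them. Chil3 in Mll3/4SI went from 3.90 to -2.10.

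The other 3 of the 5 genes furthest up in Mll4SI stayed more than 2-fold higher without those cells. Cd226, which encodes the activating receptor DNAM-1 of NK and T cells, was at 150 CPM in control and 716 CPM in Mll4SI, where 13 of 14 cells held it, against 15 of 29 in control. Its log2 ratio was 2.19 (1.71 to 2.83), and 2.35 without the S100a8-rich cells. In Mll3/4SI Cd226 was also more than 2-fold above control, at 341 CPM in 20 of 25 cells and a log2 ratio of 1.14 (0.66 to 1.74). In Mll3SI it was at 139 CPM, in 5 of 9 cells. St6galnac3, a sialyltransferase gene, had a ratio of 2.38 (1.91 to 3.04) and 2.65 without them. Inpp4b, a phosphoinositide phosphatase gene, had 2.29 (1.77 to 3.02) and 2.81. These 3 genes were higher in Mll4SI than in control with and without the S100a8-rich cells. Furthest down in Mll4SI was Klra4, an NK receptor gene of the Ly49 family, at 354 CPM in control, 139 in Mll3SI, 0 in Mll4SI and 136 in the Mll3/4SI library. Its control UMIs came from 8 of 29 cells, and reads of such closely related genes may be split between copies.

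Rora and Maml3 were among the 5 genes furthest down in all 3 mutant libraries, and Zbtb16 in Mll3SI and Mll3/4SI. Rora and Zbtb16 are transcription factors of innate lymphoid and unconventional T cells, and Maml3 is a coactivator of Notch signalling. The other genes so named were Tpm3-rs7, Lgals1, 2610307P16Rik and Gm4258, of which Tpm3-rs7 shares sequence with Tpm3 and is uncertain. Rora (chr9:68653786-69388246) was at 438 CPM in control, 0 in Mll3SI, 30.8 in Mll4SI and 63.5 in the Mll3/4SI library. Zbtb16, which encodes PLZF, was at 252, 0, 15.4 and 28.9, and Tcf7, which encodes TCF-1, at 416, 74.2, 162 and 130. The log2 ratio of Tcf7 was -2.34, -1.31 and -1.61, and -0.57, -1.20 and -1.45 without the S100a8-rich cells, so in Mll3SI it was then no longer past 2-fold. Levels were thus highest in control for all 3 factors. Rora and Zbtb16 were each found in 8 of 29 control cells and Tcf7 in 23, and most UMIs of all 3 lay in few cells. Of 120 Rora UMIs 103 lay in 5 control cells, as did 59 of 69 for Zbtb16, 71 of 114 for Tcf7 and 24 of 28 for Il7r, the interleukin 7 receptor chain. Rora was at 1840 CPM in those 5 cells and at 78.0 CPM in the other 24.

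Those 5 cells were picked out for having none of the 4 NK receptors, and with 1 cell each in Mll3SI and Mll3/4SI, both rich in S100a8, there were 7 such cells of 77. Of the 7 cells 6 had no more than 1 CD3 gene. All 7 had Bcl11b, but Bcl11b is a rule gene. A cell with few CD3 genes needs other rule genes to be counted, so its presence is no finding. Trbc1, the other beta chain constant gene, was found in 6, Tcf7 in 6, Gata3 in 5 and Rora in 5. Single cells differed: 1 held 51 Rora, 29 Zbtb16 and 16 Il7r UMIs with 82 counts of the CD127 antibody against the same receptor, another held 48 Rora and 37 Tcf7 UMIs, and one more held 22 Tcf7 and 22 Trbc2 UMIs with 1 Rora UMI. Their B220 antibody counts were 6 to 34, lower than in most other lymphoid cells. Eomes, a factor of mature NK cells, was found in none of them. Cells with none of the 4 NK receptors thus numbered 5, 1, 0 and 1, and control Rora without them was at 78.0 CPM, against 438 with them. The Mll3SI cell had 3 CD3 genes and no UMI of Trbc1, Tcf7, Rora, Zbtb16 or Gata3.

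Among the 18 lymphoid transcription factors listed, which include the rule gene Bcl11b, 15 passed the expression filter. Their median log2 ratio was -0.85 in Mll3SI (2 of 15 higher), -0.15 in Mll4SI (6 of 15) and -0.37 in Mll3/4SI (2 of 15). At least 2-fold lower were 6, 3 and 5, and at least 2-fold higher 1, 0 and 0. Without the S100a8-rich cells the medians were 0.11, -0.14 and -0.40, so the value for Mll3SI turned. Runx3, a factor of cytotoxic lymphocytes, was at -1.11, -0.65 and -1.11, and at -0.02, -0.26 and -0.98 without those cells.

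T cell receptor complex and signalling genes showed no common direction. The list includes the rule genes Cd3d, Cd3e, Cd3g, Trbc2 and Lck, so its values partly describe the choice of cells. Of 18 used of 20, 6 were higher in Mll3SI, 11 in Mll4SI and 6 in the Mll3/4SI library, with medians of -0.15, 0.26 and -0.31. At least 2-fold higher were 1, 4 and 1, and lower 2, 2 and 3. Prkcq, a kinase downstream of the receptor, was at 0.55 (-0.12 to 1.24), 1.24 (0.72 to 1.84) and 0.44 (-0.05 to 0.97). Lat, the adaptor that Lck and its partner ZAP-70 act through, was at -0.73, -2.10 and -2.15. Without the S100a8-rich cells the medians were 0.68, 0.45 and -0.01.

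Cytotoxic effector and NK receptor genes were mostly lower in Mll3SI and mixed in the other libraries. Of 19 used of 20, 4 were higher in Mll3SI, 10 in Mll4SI and 11 in the Mll3/4SI library, with medians of -0.61, 0.04 and 0.09. At least 2-fold lower were 7, 3 and 0, and at least 2-fold higher 1 in each. Without the 8 cells all 3 medians were above 0, at 0.43, 0.36 and 0.36, so the direction in Mll3SI turned. Summed over the list, single cells had a median of 15685 CPM in control, 14138 in Mll3SI, 16016 in Mll4SI and 12521 in the Mll3/4SI library, and their ranges overlapped widely. Gzmb, a granzyme of activated cells, had a ratio of 1.81 (1.08 to 3.21) in Mll3/4SI. Gzma, the granzyme of most NK cells, was at -2.74 (-4.17 to -1.90) in Mll4SI, -0.14 in Mll3/4SI and -0.01 in Mll3SI. Gzma was held by few cells: in control 1 cell carried 99 of 128 UMIs, in Mll3SI 1 S100a8-rich cell carried all 50, and at least 10 UMIs were found in 2, 1, 0 and 6 cells.

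Cytokine receptors had medians of -0.70, 0.15 and -0.12 (11 genes used of 15), with 0, 3 and 1 genes at least 2-fold higher and 3, 0 and 1 lower. Without the S100a8-rich cells they had -0.06, 0.47 and 0.38, so the sign in Mll3/4SI turned. Il7r was among the higher ones in Mll4SI, at 1.36 (0.69 to 2.21). The cytokine receptor list also holds the rule gene Il2rb. Trafficking genes had -0.72, 0.07 and -0.09 (9 of 12), and -0.43, 0.16 and -0.03 without those cells. Checkpoint and activation genes kept only 3 of 10, and the median of those was 0.07, 0.66 and 0.45, or 0.66, 1.10 and 0.76 without them. Genes of the MLL3/4 complex had -0.05, 0.14 and -0.29 (9 of 10), or -0.06, 0.53 and -0.14. Of the targeted genes, Kmt2c was at 208, 185, 285 and 144 CPM in the lymphoid cells, against 130, 109, 148 and 125 in other cells. Kmt2d was at 29.2, 27.8, 46.2 and 17.3. Nothing in the labels says whether the altered alleles lose their transcript, so these levels do not check the genotype.

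**Figure D3:**
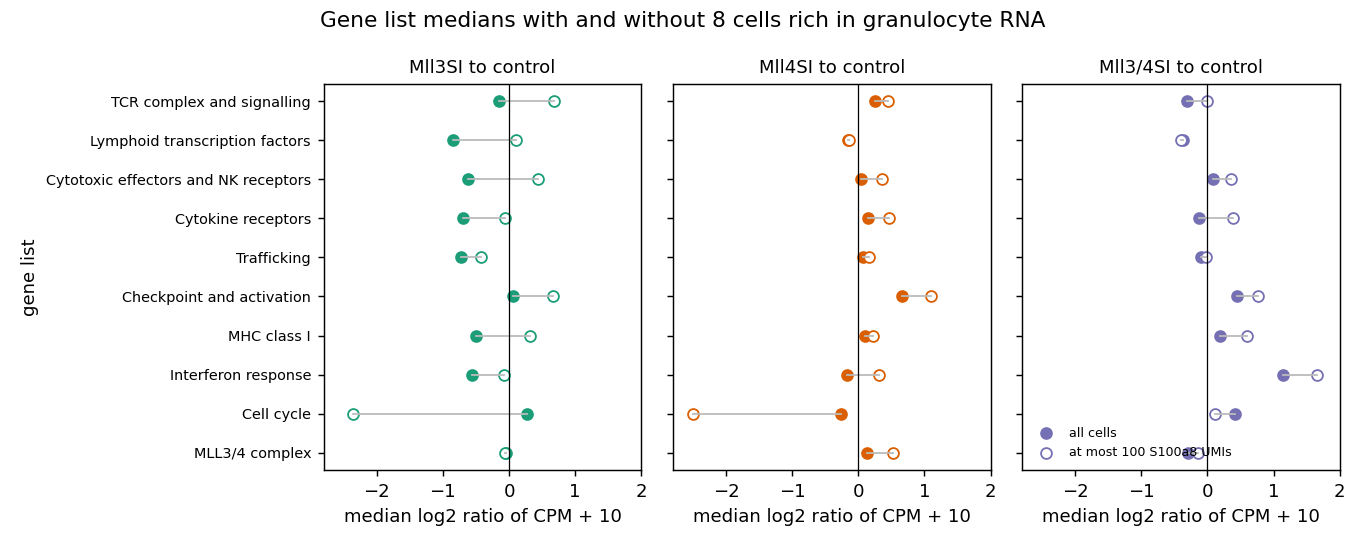
Median log2 ratio to control (x axis, CPM + 10) of 10 gene lists (y axis) in the lymphoid cells of the 3 mutant libraries, with all cells (filled) and without cells above 100 S100a8 UMIs (open). The interferon response list stands at 1.14 and 1.66 in Mll3/4SI, and the cell cycle list in Mll3SI moves from 0.28 to -2.36 when 3 cells are left out.

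The interferon response list stood furthest from 0 among the 10 lists in Mll3/4SI. Type I and type II interferons induce such genes in cells that carry their receptors. Of the 17 genes listed 10 passed the filter, and in Mll3/4SI 9 of the 10 were higher than in control, 6 of them at least 2-fold, with a median log2 ratio of 1.14 (1.66 without the S100a8-rich cells). The medians were -0.57 in Mll3SI, where 3 of the 10 were at least 2-fold lower, and -0.17 in Mll4SI, where 1 was 2-fold higher and 1 lower. Without the S100a8-rich cells these were -0.08 and 0.31, so the sign in Mll4SI turned. In the other kept cells of Mll3/4SI the same genes had a median of 0.63, 9 of 10 higher, so a shift of this sign was not particular to lymphoid cells.

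Ifi27l2a, a small interferon-induced gene (chr12:103442167-103443680), was at 40.1 CPM in control, 37.1 in Mll3SI, 0 in Mll4SI and 612 in the Mll3/4SI library, where 12 of 25 cells held it. Isg15, a ubiquitin-like modifier (chr4:156199424-156200818), was at 10.9 CPM in control and 104 in Mll3/4SI, a log2 ratio of 2.44. Bst2, the virus-tethering protein tetherin (chr8:71534255-71537456), was at 117 and 286. Ly6a, which encodes the surface protein Sca1 (chr15:74994877-74998031), was at 0 in control and 165 CPM in Mll3/4SI. Usp18, a brake on the interferon receptor, was at 14.6 and 57.7, Zbp1 at 40.1 and 80.8 and Xaf1 at 40.1 and 69.3. Ifi203 differed little (182 and 214), and Ifi47 was the 1 gene that was lower (131 and 104).

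Summed over the list, single control cells ran from 0 to 2242 CPM with a median of 571. Mll3SI cells ran from 64.1 to 1248 (median 551), Mll4SI cells from 0 to 4624 (796), and Mll3/4SI cells from 126 to 12577 (1381). The groups overlapped, but 7 of 25 Mll3/4SI cells and 1 of 14 Mll4SI cells lay above the highest control cell. In Mll3/4SI the level went with the hashtag: the 12 cells with Hashtag1 alone had a median of 632 CPM and the 12 with Hashtag2 alone 2272. In control the medians were 661 and 571. The list median against control was -0.21 within Hashtag1 and 1.80 within Hashtag2. The other kept cells of Mll3/4SI showed the same order, at 206 and 416 CPM, against 189 and 211 in control. The higher interferon level was thus seen in the Hashtag2 lymphoid cells of Mll3/4SI. Among those with Hashtag1 alone the median was close to that of control, and 1 of the 12 lay above the highest control cell. What the hashtags marked is not in the labels, and their part in the result was not tested beyond these values.

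**Figure D4:**
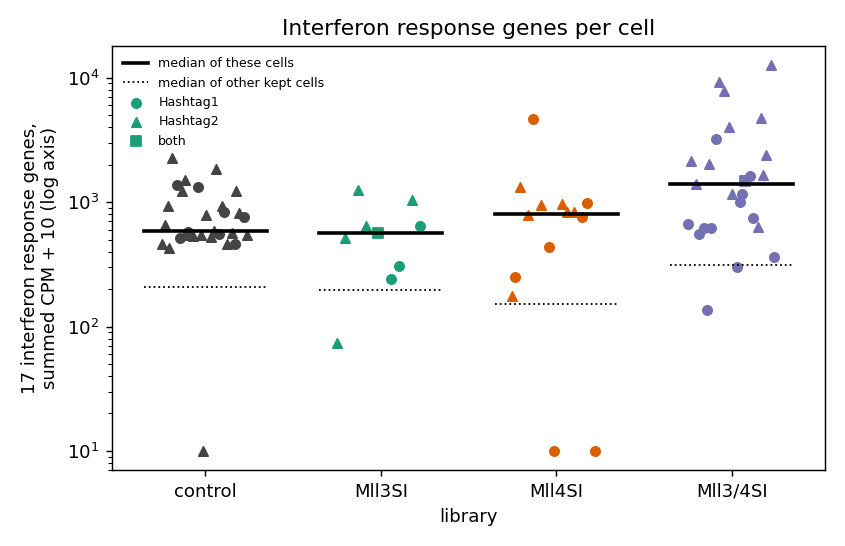
Summed CPM of the interferon response list in each lymphoid cell (y axis), by library and hashtag (log axis, 10 added), with thick lines for the median of the lymphoid cells and dotted lines for that of all other kept cells. The Mll3/4SI cells with Hashtag2 alone have a median of 2272 CPM and those with Hashtag1 alone 632, against 571 and 661 in control.

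The letters GAAA, then any 2 bases, then GAAA, are the core of the element bound by interferon-activated factors. They were searched in the 250 bases before the starts of Isg15 (chr4:156200819-156201068, minus strand) and Bst2 (chr8:71537473-71537722, minus strand), shown since both genes were at least 2-fold higher in Mll3/4SI. The sequences are from RefSeq (GRCm38.p6), 5′ to 3′ along the gene, with matches on either strand in capitals.
Isg15: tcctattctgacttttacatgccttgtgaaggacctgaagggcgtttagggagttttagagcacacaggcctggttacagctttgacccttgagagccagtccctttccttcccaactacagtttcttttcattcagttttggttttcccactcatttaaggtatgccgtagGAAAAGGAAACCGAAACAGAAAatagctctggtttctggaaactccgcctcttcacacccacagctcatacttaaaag
Bst2: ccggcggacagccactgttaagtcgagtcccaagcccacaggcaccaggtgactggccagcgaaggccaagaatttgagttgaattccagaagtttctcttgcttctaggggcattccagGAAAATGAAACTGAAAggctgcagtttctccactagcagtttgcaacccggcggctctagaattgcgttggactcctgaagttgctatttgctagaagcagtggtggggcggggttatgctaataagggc
Isg15 held 3 overlapping matches and Bst2 held 2. Of the 17 genes of the list 11 had a promoter entry and 7 of those held a match (Isg15, Ifit1, Ifit3, Ifi203, Stat2, Bst2 and Oas1a), against 2.98% of 32851 promoters. A match did not go with a large difference in every gene, as Ifi203 was at 182 CPM in control and 214 in Mll3/4SI.

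MHC class I genes, which encode the molecules and the peptide-loading machinery that NK receptors and T cells survey, had a median log2 ratio of 0.20 in Mll3/4SI with 10 of 11 higher and 1 at least 2-fold. It was -0.51 in Mll3SI (0 of 11 higher, 3 at least 2-fold lower) and 0.10 in Mll4SI (7 of 11). Without the S100a8-rich cells it was 0.60, 0.32 and 0.22, so the direction in Mll3SI turned. Tap1, a peptide transporter gene, was at 1.01 (0.23 to 2.14) in Mll3/4SI, Psmb8, an immunoproteasome gene, at 0.50 (0.17 to 0.86), and H2-K1 at 0.18 (0.04 to 0.33). In the other cells of the 3 libraries the list stood at -0.04 for Mll3SI, -0.48 for Mll4SI and 0.42 for Mll3/4SI. In Mll4SI the lymphoid cells and the other cells therefore had opposite signs.

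Most lymphoid cells had low cell cycle RNA. The list of 18 genes summed to a median of 737 CPM in control, 916 in Mll3SI, 580 in Mll4SI and 493 in the Mll3/4SI library, against 4036 to 6183 CPM in other cells. At least 5 UMIs of the proliferation gene Mki67 were found in 4, 3, 1 and 9 cells, of which 0, 3, 1 and 3 were rich in S100a8 and 2, 1, 1 and 5 were scored as doublets. These 17 cells had a median of 24169 UMIs against 6012 in the other 60. Of the 9 cells with at least 10 Gzma UMIs 8 also had Mki67. The list medians against control were 0.28, -0.26 and 0.41, and -2.36, -2.50 and 0.11 without the S100a8-rich cells. The part of depth and of the S100a8-rich cells in these counts was not tested further.

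Surface antibodies gave a readout that the gene rule did not use. The panel held 13 surface antibodies, none against CD3 or an NK receptor. B220, the CD45 form found on B cells and on some NK cells and their precursors, had median counts of 105, 86, 296 and 282 in the lymphoid cells, against 11, 19, 13 and 18 in other cells. It exceeded the 90th percentile of other cells in 20 of 29, 7 of 9, 14 of 14 and 22 of 25 cells. At least 3 B-lineage markers were found in 1 cell, as given above. The median share of UMIs from these markers was 0.0113%, 0%, 0.00151% and 0.00557%. In other cells it was 0.00308%, 0.00414%, 0% and 0%. As a share of antibody counts B220 was 2.08% in control and 3.14%, 4.95% and 5.30% in the mutant libraries in the order above, log2 ratios of 0.59, 1.25 and 1.35. Without the S100a8-rich cells the median counts were 105, 334, 248 and 300. For Mll3SI the median centred value per cell gave -0.88 and shares without the hashtag counts gave -0.49, so its direction depended on the method, while Mll4SI and Mll3/4SI were above control in each setting tried.

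Cells with at least 100 B220 counts made up 19 of 29 in the CD3 subset and 18 of the 26 cells with Ncr1 and no CD3 gene, but none of the 7 without an NK receptor. The B220 signal was therefore shared by cells with and without CD3 transcripts.

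CD117, the antibody against the sorted protein, was low: median counts were 58, 44, 34.5 and 53, against 101, 106, 89 and 107 in other cells. A Kit UMI was found in 17, 6, 7 and 15 cells, and at least 5 in 2 cells, both in control. The 7 cells without an NK receptor had a median CD117 count of 129, but also a median of 14917 gene UMIs. In the CD3 subset these medians were 48 and 6900. The S100a8-rich cells among the 7 had CD117 counts of 129 and 287, and those in control 46 to 184. The myeloid antibodies were lower still, with median CD11b counts of 11, 13, 9.50 and 14 against 234, 187, 277 and 290. CD48, a protein of most lymphocytes, had medians of 552, 701, 621 and 703 against 380, 470, 165 and 491.

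CD127 exceeded the 90th percentile of other cells in 7, 1, 7 and 8 cells. Sca1 did so in 4, 1, 3 and 10 cells, and 8 of the 10 in Mll3/4SI also had a UMI of Ly6a, its gene. No control cell had a Ly6a UMI, and the highest Sca1 count was 111 in control, 174 in Mll3SI, 263 in Mll4SI and 1655 in the Mll3/4SI library. RNA and protein thus both placed high Sca1 in part of the Mll3/4SI lymphoid cells, and 1 cell held 40 of their 57 Ly6a UMIs. Of the 10 cells with high Sca1 there, 3 were rich in S100a8. Those with Hashtag1 alone had Sca1 counts of 179 (rich in S100a8), 30 and 30, against a 90th percentile of 29. Those with Hashtag2 alone had 69 to 1655. The part of the hashtag was not tested.

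**Figure D5:**
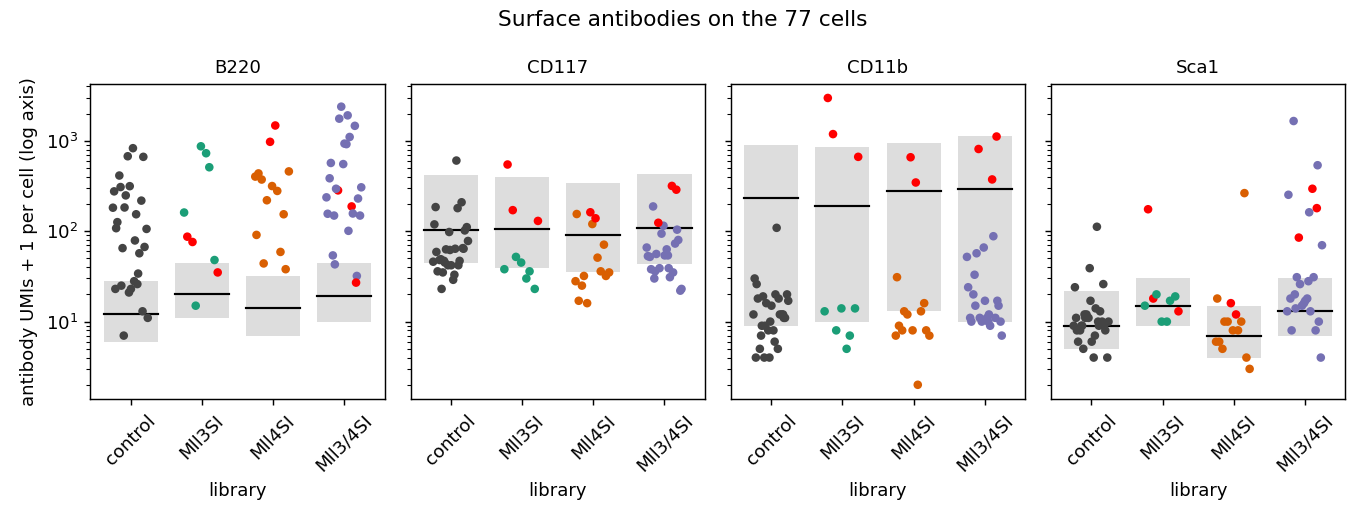
Antibody counts per lymphoid cell (y axis, log scale) by library, with the 10th to 90th percentile of all other kept cells as a grey band, their median as a black line and cells above 100 S100a8 UMIs in red. B220 lies above the band in 20, 7, 14 and 22 cells, and CD11b lies low except in the S100a8-rich cells.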

How the data were processed

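The deposited values are UMI counts per feature and cell barcode, made by the authors with Cell Ranger 7.1.0 on build mm10, per the submitters' processing notes, for 32285 genes and 15 antibodies. Cell-calling settings are not given in the sources used here. Free RNA could not be measured from empty droplets.

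Kept cells had 500 or more genes detected, 1000 or more UMIs in genes and no more than 10% of them mitochondrial. Groups come from the sample titles. The members and gene lists were chosen with earlier results of these data known. UMIs were summed over the lymphoid cells of a library and given as CPM of all gene UMIs. Log2 ratios use CPM + 10, which understates low genes, over genes with a mean of at least 20 CPM. With 1 library per group nothing was tested, and called means past 2-fold. Named genes are the rule genes, markers and list genes, and the 5 genes with the largest ratio (50 CPM added) in each direction that at least 5 cells held. Intervals are exact Clopper-Pearson for shares and exact conditional ones for ratios of gene UMI counts, at 95%, without the added CPM. Those for ratios of shares combine both Clopper-Pearson intervals on the log scale and are approximate.

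Scrublet marked 409, 594, 1001 and 411 cells (control, Mll3SI, Mll4SI, Mll3/4SI), the top 0.8% per 1000 cells. They were kept, and left out as an alternative. Hashtag thresholds (138 UMIs for Hashtag1, 312 for Hashtag2) were placed after the data were seen, and 282, 709, 1173 and 349 cells exceeded both. Of the gene IDs 32158 matched GENCODE M21 (GRCm38). Python 3.11.15, numpy 2.4.6, scipy 1.17.1, pandas 2.3.3, scanpy 1.11.5 and matplotlib 3.10.9 were used, and the comparison was tested on simulated data.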

Additional observations from a re-analysis of the deposited data

How the results depend on the processing

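Depth and cell number limit these results: with 9 to 29 cells a library, the 3 deepest cells held 33.0% to 73.3% of the summed UMIs. No paired analysis was possible because each group is 1 library. Settings by hashtag, by NK markers, by S100a8 and by the rule without Cd3d were chosen after seeing the data. For the share ratios, the interferon list, the percentage of genes past 2-fold and B220, 132 alternative values stayed within their margin (the counting interval for shares, 1.5 times for the others), 40 moved further and 1 reversed a value that was past 2-fold. Smaller values among the 40 also crossed to the other side of control, as the numbers below show. Doublets here means Scrublet or both-hashtag cells. Why a value moved was not tested.

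The share ratio of Mll3/4SI to control was 1.90 by NK markers and 1.74 within Hashtag1, and that of Mll4SI 0.641 after thinning and 0.603 within Hashtag1. The interferon list median in Mll3/4SI was 1.85 without Scrublet or both-hashtag cells, 2.05 in cells of low granulocyte share, 1.80 within Hashtag2 and -0.21, a reversal, within Hashtag1. In Mll4SI it was 0.69 and 0.97 under the first 2 of these. In Mll3SI it was -1.44 in the CD3 subset and -2.19 within Hashtag1.

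The percentage of genes past 2-fold in Mll3SI, Mll4SI and Mll3/4SI was 5.05, 3.11 and 2.35 with 50 CPM added and 13.5, 9.71 and 7.13 among genes of at least 100 CPM. In cells of low granulocyte share it was 71.9, 36.0 and 20.1, within Hashtag1 45.2, 31.9 and 25.4, and within Hashtag2 39.0, 37.6 and 17.9. The CD3 subset gave 26.4 in Mll4SI and 33.8 in Mll3/4SI. Mll3/4SI also had 17.3 with 1 CPM added and 23 with at least 4 rule genes, Mll4SI 29.0 without doublets and Mll3SI 42.3 without S100a8-rich cells.

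The B220 log2 ratio in Mll3SI was -0.49 without hashtag counts, -0.88 as a median centred value, 1.18 in the CD3 subset, 1.18 without doublets and 1.63 without S100a8-rich cells. It was 1.94 as a centred value and 2.13 in the CD3 subset in Mll4SI, and 2.60 in the CD3 subset in Mll3/4SI. Other antibodies reversed as follows. As centred values Sca1 in Mll4SI was -0.40, CD41 in Mll4SI 0.53, CD34 in Mll3SI -0.0113, CD135 in Mll3SI -0.28 and Gr1 in Mll3/4SI -0.74. Gr1 there was -0.22 in the CD3 subset, -0.35 without doublets and -0.31 without S100a8-rich cells. Without S100a8-rich cells CD150 in Mll3SI was -0.0312, CD11b in Mll3SI -0.15 and CD11b in Mll4SI -0.27, and the last was -0.60 without doublets. The CD3 subset of low granulocyte share held no Mll3SI cell and gave no value.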
